A study of Mus musculus with 12 samples.

Results

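The mitochondrial genome of the mouse carries 37 genes, and all 37 were found in the deposited count table by the mt- prefix of their symbols, among 37681 genes in all. They were 13 mRNAs (7 for subunits of complex I, 1 for complex III, 3 for complex IV and 2 for complex V, the ATP synthase), 2 rRNAs and 22 tRNAs. The RNA came from a thin layer of kidney cortex of 6 male C57BL/6 mice, 18 months old and without treatment, with 1 library from each of the 2 kidneys of a mouse. The 3 TG+ mice (43-29, 43-49 and 43-75; genotype TRACK/gamma-HIF1alphaM3 TG+) carried the TRACK transgene, which encodes HIF1α, a transcription factor of the response to low oxygen, in a form altered to stay active. In this tumour model it is expressed by proximal tubule cells. The 3 TG- mice (43-26, 43-50 and 43-76) were littermates without the transgene. The RNA was from tissue, and not only from the cells that express the transgene.

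The mitochondrial genome is transcribed from both of its strands into long RNAs that run through many genes. Enzymes cut the tRNAs out of these RNAs, which frees the mRNAs and rRNAs that lie between them, and most mRNAs then receive a short poly(A) tail. Every mRNA of this genome encodes a subunit of the respiratory chain or the ATP synthase, while the remaining subunits, the mitochondrial RNA polymerase and the proteins of the mitochondrial ribosome come from nuclear genes. Proximal tubule cells are rich in mitochondria, since reabsorption uses much ATP.

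In the TG+ kidneys the measurable mitochondrial mRNAs were lower: all 7 that could be tested fell, by 21.9% to 28.2%. Neither rRNA nor any tRNA passed the test in the fit without pairs. At the same threshold, an adjusted p below 0.05, 10.9% of all genes tested were lower. Of 68 abundant nuclear genes, described below, 60.3% were lower as well. The other 6 mRNAs did not pass the filter on low counts, which asks for enough reads in at least 3 mice. They lie side by side on the genome, and nearly all of the sequence of 5 of them is also found in annotated nuclear transcripts, so the reads assigned to each gene are described first.

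Of the 37 genes, 25 passed the filter on low counts (7 mRNAs, both rRNAs and 16 tRNAs). Below 50 reads over all 12 libraries were mt-Co2 with 32 reads, mt-Tg with 33, mt-Ts1 with 5, mt-Nd4l with 4 and mt-Atp6 and mt-Atp8 with 1 each, and mt-Co3, mt-Td, mt-Tk and mt-Ty had 0. A count of 0 among the 314074137 reads of all libraries allows up to 3 reads, or 0.00955 CPM (reads of a gene per 1e+06 counted reads), and this limit covers counting error only. mt-Nd3 with 270 reads and mt-Tr with 316 made up the rest of the 12 genes not tested. They had more reads than mt-Tf, which was tested with 131, but nearly all were from 2 mice. By contrast, the 7 tested mRNAs had between 1536751 reads (mt-Nd6) and 7367920 reads (mt-Cytb). The 11 neighbouring genes from mt-Ts1 to mt-Nd4l, 6 mRNAs and 5 tRNAs, had at most 316 reads each. The only gene outside this stretch that was not tested was mt-Ty, the tRNA for tyrosine just ahead of mt-Co1.

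To see which mitochondrial sequence could also match elsewhere, every window of 51 bases, the read length, was searched on both strands in the annotated nuclear transcripts of GENCODE M21 (build GRCm38). An exact match was found for 634 of 634 windows of mt-Co2 (subunit 2 of cytochrome c oxidase), for 628 of 631 of mt-Atp6, for 733 of 734 of mt-Co3, for 292 of 298 of mt-Nd3 and for 244 of 247 of mt-Nd4l. mt-Atp8 had 0 of 154 windows matched. Nuclear sequence outside annotated transcripts was not searched, so a gene without a match here may still have a nuclear copy. Among the tested mRNAs, mt-Nd4 shared 826 of its 1328 windows (62.2%), mt-Co1 757 of 1495 (50.6%), mt-Nd5 128 of 1774 (7.22%) and mt-Nd2 79 of 988, and mt-Nd1, mt-Nd6 and mt-Cytb shared no window. Of the rRNAs, mt-Rnr2 shared 15 of 1532 windows, and the tRNAs shared none.

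The matching transcripts included 7 unprocessed pseudogenes on the minus strand of chromosome 1 (Gm28439, Gm10222, Gm28438, Gm28437, Gm10925, Gm28661 and Gm29216), within 4663 bases at chr1:24611535-24616197. Of these, only Gm10222 had a row in the deposited table, with 1 read in total. Gm13341 on chromosome 2, which shared windows with mt-Co2, had 942 reads and its neighbour Gm13340, which shared windows with mt-Co1, had 650. Where the authors' program placed a read that matches several sites was not given in the sources used here, and whether this set the low counts was not tested. Gm10224 and Gm11808 were listed as nuclear copies too but shared no window of 51 bases with a mitochondrial gene, and their log2 fold changes were 0.17 (SE 0.0942) and 0.05 (SE 0.0530).

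The ends of the shared stretch fall inside 2 of the tested mRNAs. mt-Nd4 matched Gm28439 in 1 unbroken run from base 1 to base 876 of its 1378 bases, and mt-Co1 matched Gm29216 from base 1067 to its last, base 1545. The sequences around these edges are shown because they hold the edges of these 2 runs. In mt-Co1, further windows ahead of base 1067 matched Gm13340. They are from the GENCODE M21 transcripts, 5′ to 3′ on the plus strand of the mitochondrial genome (GRCm38), at chrM:11003-11082 for mt-Nd4 and chrM:6354-6433 for mt-Co1, both inside the coding exon. Capitals mark the bases inside the run shared with Gm28439 or Gm29216.
mt-Nd4: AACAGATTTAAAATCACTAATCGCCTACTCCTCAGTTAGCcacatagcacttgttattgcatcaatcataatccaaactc
mt-Co1: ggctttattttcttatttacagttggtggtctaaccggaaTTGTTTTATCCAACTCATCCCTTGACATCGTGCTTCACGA

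The tRNA genes are short, which limits where a read can lie wholly inside a gene. They allow between 9 and 25 positions for a read of 51 bases that lies wholly inside, against 469 for mt-Nd6, the shortest tested mRNA. The counting program was not given in the sources used here, so reads that overlap a gene only in part may have been counted too. The tRNA for arginine (mt-Tr, chrM:9808-9875, plus strand) and that for glycine (mt-Tg, chrM:9391-9458, plus strand) are shown because their reads came almost wholly from 2 mice, and the tRNA for glutamate (mt-Te, chrM:14071-14139, minus strand) because it had the most reads of all tRNAs. No base is capitalised.
mt-Tr: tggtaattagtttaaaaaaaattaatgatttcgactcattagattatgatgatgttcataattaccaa
mt-Tg: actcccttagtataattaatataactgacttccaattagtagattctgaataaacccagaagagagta
mt-Te: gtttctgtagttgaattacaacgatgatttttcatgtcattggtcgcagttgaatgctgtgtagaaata

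**Figure D1:**
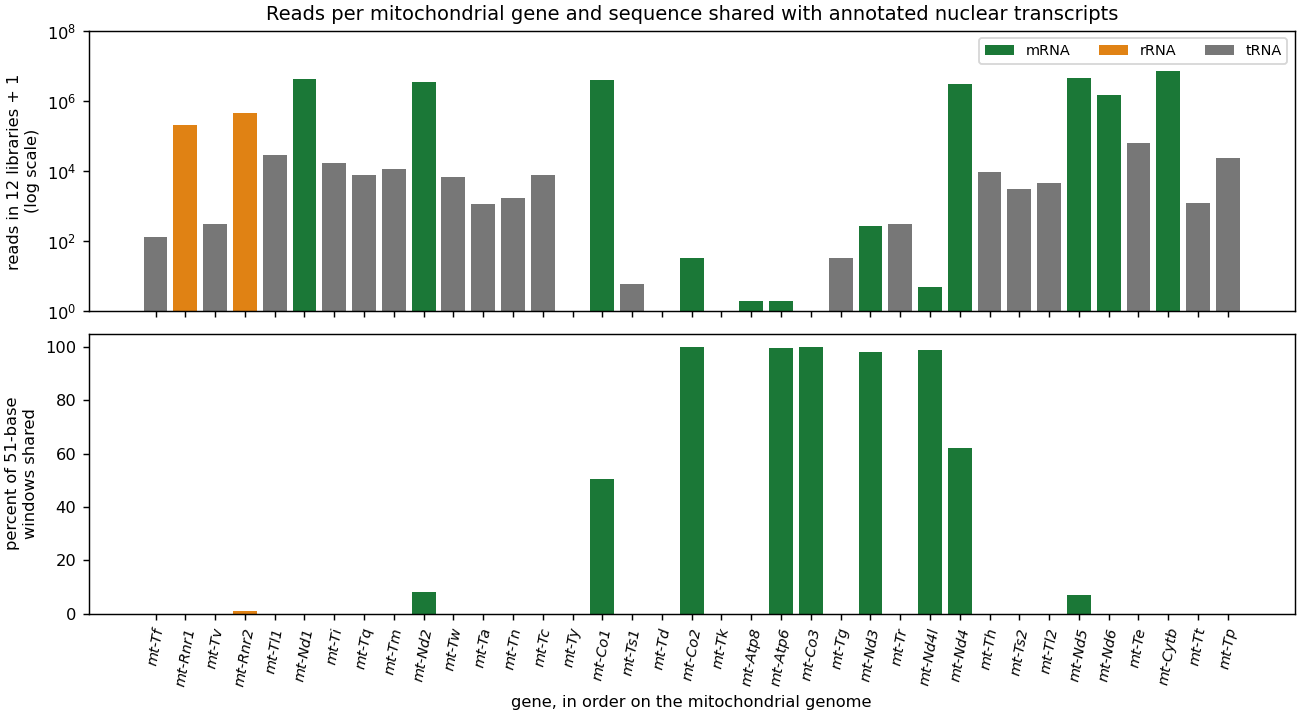
For the 37 mitochondrial genes in genome order, the upper panel gives the reads of all 12 libraries plus 1 on a log scale and the lower panel the percentage of 51-base windows with an exact match in an annotated nuclear transcript. The genes from mt-Ts1 to mt-Nd4l have at most 316 reads, and 5 of the 6 mRNAs there share 98.0% to 100% of their windows.

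mt-Nd3, mt-Tr and mt-Tg, which are neighbours on the genome, separated the mice in a way that the genotype does not. mt-Nd3, a subunit of the membrane arm of complex I, had 59 and 55 reads in the 2 kidneys of TG+ mouse 43-49 and 89 and 66 in those of TG- mouse 43-50, whereas the other 8 libraries held 1 read in all. mt-Tr had 69 and 63 reads in mouse 43-49 and 95 and 85 in mouse 43-50, and mouse 43-26 had 4. All 33 reads of mt-Tg were from mice 43-49 and 43-50. Both kidneys of each mouse gave the same picture, and 1 of the mice is from each group. Labels name no batch. The name of the deposited table speaks of 3 pairs and lists mice 43-49 and 43-50 side by side, 43-26 with 43-29 and 43-75 with 43-76, without saying what a pair shares. What mice 43-49 and 43-50 share was not tested, and the counts of called genes are also given without them. That comparison, of 2 mice against 2 and chosen after the data were seen, called 7.31% of its 19415 genes as lower and 11.2% as higher at an adjusted p below 0.05.

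Mitochondrial transcripts took up a large part of each library. The depth was 21888584 to 33704850 counted reads per library and 48052131 to 60506785 per mouse. Of these reads, mt mRNAs made up 8.38%, 7.76% and 8.70% in TG+ mice 43-29, 43-49 and 43-75, and 10.5%, 9.46% and 10.4% in TG- mice 43-26, 43-50 and 43-76. The groups did not overlap, and the means were 8.28% ± 0.477 (SD, n = 3) in TG+ and 10.1% ± 0.573 in TG-, a ratio of 0.819. Among the single libraries, TG+ ranged from 7.41% to 8.96% and TG- from 9.34% to 10.6%. A share of reads does not depend on scaling between libraries, but it falls when other genes take up more reads.

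By complex, complex I mRNAs made up 5.02% ± 0.257 of the reads in TG+ and 6.06% ± 0.310 in TG- mice. mt-Cytb, the only mitochondrial gene of complex III, made up 2.07% ± 0.150 against 2.62% ± 0.215. The complex IV mRNAs, nearly all of it mt-Co1, made up 1.20% ± 0.0706 against 1.44% ± 0.106. In each of the 3 complexes every TG+ mouse was below every TG- mouse, while complex V could not be measured, since mt-Atp6 and mt-Atp8 had 2 reads between them.

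rRNA reads were few beside mRNA reads, and their shares did not separate the groups. The rRNAs made up 0.216%, 0.245% and 0.214% of the reads in TG+ mice 43-29, 43-49 and 43-75 and 0.198%, 0.182% and 0.217% in TG- mice 43-26, 43-50 and 43-76, with overlapping groups. tRNAs made up 0.0575% ± 0.00793 in TG+ and 0.0639% ± 0.0140 in TG-, again with overlap. Per rRNA read there were 38.8, 31.6 and 40.7 mRNA reads in the TG+ mice, and 52.9, 51.9 and 47.9 in the TG- mice, so that these ratios separated the groups. Whether the library preparation captured mRNA, rRNA and tRNA alike was not tested. Shares of reads are therefore not amounts of these RNAs in the tissue. The cell type markers that also moved are given with the comparison below.

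**Figure D2:**
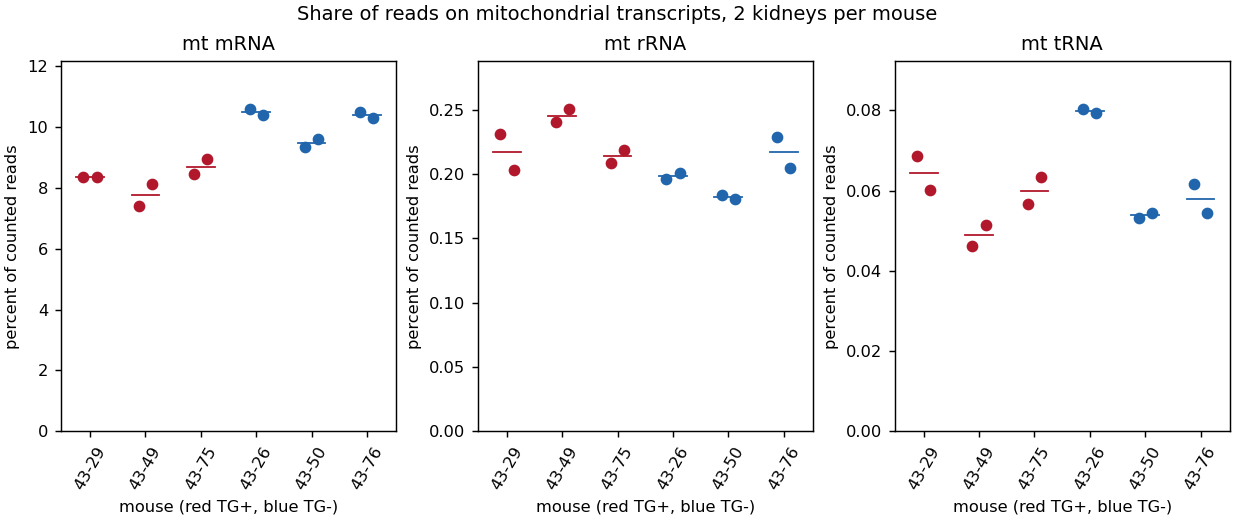
Percentage of all counted reads on mitochondrial mRNA, rRNA and tRNA in each of the 12 libraries (points; lines are the mean of the 2 kidneys of a mouse; red TG+, blue TG-; each panel has its own axis from 0). The mRNA points lie between 7.41% and 8.96% in TG+ and between 9.34% and 10.6% in TG-, and the rRNA and tRNA points of the groups overlap.

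For the comparison of single genes, the counts of the 2 kidneys of a mouse were summed and levels were expressed as normalised CPM. TG+ and TG- were compared by the quasi-likelihood test of edgeR, and p-values were adjusted by the method of Benjamini and Hochberg over the 19399 genes tested. The mouse was the replicate. At an adjusted p below 0.05, 7 mitochondrial genes were lower, against 10.9% of all genes tested, and 15.4% of all genes were higher. With the study's threshold (adjusted p below 0.01 and a fold above 2 or below 0.5) the test called 0 of the 25 mitochondrial genes, as did DESeq2, and 0.211% of all genes were lower and 3.77% higher. The number of mitochondrial genes at an unadjusted p below 0.05 was 7 as well. An exact permutation test of 3 against 3 mice cannot give a p below 0.1.

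Of complex I, which takes up electrons from NADH, 5 of the 7 mitochondrial mRNAs were tested and all 5 fell. mt-Nd4, a proton-pumping subunit of the membrane arm, was at 8402, 7277 and 8657 CPM in TG+ mice 43-29, 43-49 and 43-75 and at 11367, 10523 and 12015 CPM in TG- mice 43-26, 43-50 and 43-76. No TG+ mouse came near the TG- range, and the fitted change on the log2 scale was -0.48 (SE 0.0838, adjusted p = 0.00568), the largest fall of the 7 mRNAs. Only 502 of the 1328 windows of this gene lack a match in an annotated nuclear transcript.

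mt-Nd6, the only mRNA encoded on the other strand, was at 4236, 4063 and 4348 CPM in the TG+ mice and 5970, 5527 and 5252 CPM in the TG- mice. A log2 fold change of -0.41 (SE 0.0652) was fitted with an adjusted p of 0.0039, the lowest among the mitochondrial genes. How strand was handled in the counting was not given in the sources used here, so that reads of mt-Nd6 and of RNA from the opposite strand cannot be told apart. mt-Nd5, the long pump subunit at the end of the membrane arm, was at 13220, 12516 and 13715 CPM against 18375, 16244 and 16834 CPM, a log2 fold change of -0.38 (SE 0.0684, adjusted p = 0.00611). The 3′ end of mt-Nd5 overlaps that of mt-Nd6 on the genome, and the groups were apart for both genes.

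mt-Nd2, another pump subunit, was at 10442, 9434 and 10845 CPM in TG+ and at 13358, 12784 and 13201 CPM in TG- mice, with a log2 fold change of -0.36 (SE 0.0668, adjusted p = 0.00732). mt-Nd1, the subunit next to the quinone site, was at 12960, 11212 and 13247 CPM against 16690, 15752 and 15548 CPM, with -0.36 (SE 0.0766, adjusted p = 0.0123). Mouse 43-49 was the lowest TG+ mouse for all 5 genes, and the other 2 TG+ mice were also below every TG- mouse.

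Complexes III and IV were each represented by 1 tested mRNA, and both fell. mt-Cytb, cytochrome b, was the most abundant mitochondrial transcript, at 20206, 17930 and 21400 CPM in the TG+ mice and 27203, 25416 and 29266 CPM in the TG- mice, with a log2 fold change of -0.46 (SE 0.0848, adjusted p = 0.00694). mt-Co1, the catalytic subunit of cytochrome c oxidase, was at 11897, 10489 and 12106 CPM against 15492, 13941 and 15523 CPM, with -0.38 (SE 0.0771, adjusted p = 0.00984). In both, every TG+ mouse was below every TG- mouse.

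The 7 tested mRNAs thus fell by similar amounts. Their median log2 fold change was -0.38, against 0.01 for all genes tested, and all 7 had groups that did not overlap (exact permutation p = 0.1 for each, the smallest possible), which 20.8% of all genes tested showed in this direction. Fitted separately on kidney 1 and on kidney 2, the median was -0.43 and -0.33, and the same 7 genes were called in both, against 8.95% and 8.61% of all genes lower. Abundant nuclear genes were often lower too: of 68 nuclear genes with a mean above 1000 CPM, 60.3% were lower at an adjusted p below 0.05, with a median of -0.29, and the other 27 did not pass. Of the 68, 36 were lower and 1 was higher without mice 43-49 and 43-50, where 7.31% of all genes were lower and 11.2% higher.

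**Figure D3:**
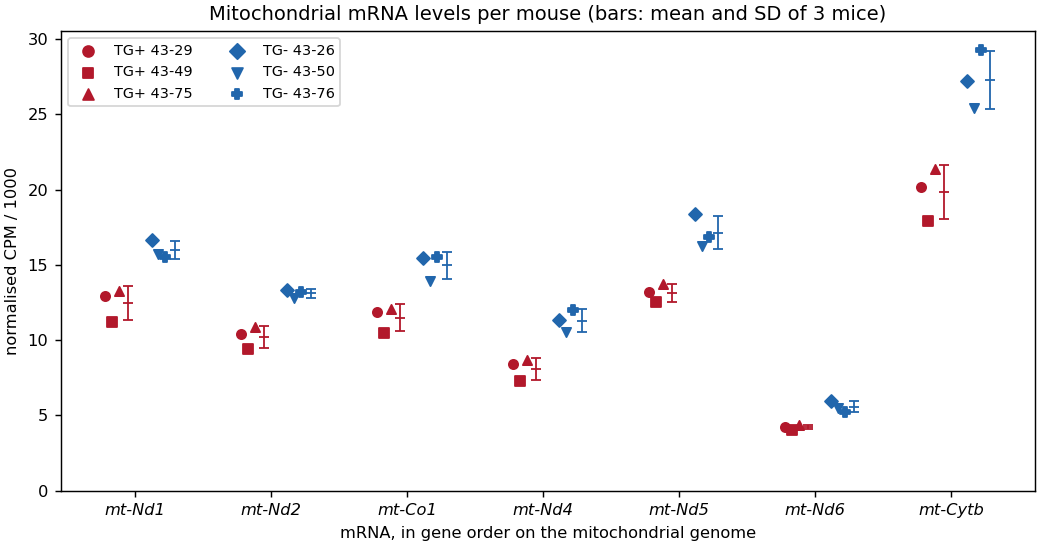
Normalised CPM divided by 1000 of the 7 tested mitochondrial mRNAs in each mouse (red TG+, blue TG-; a marker shape for each mouse; bars are the mean and SD of 3 mice). In every gene the 3 TG+ points lie below the 3 TG- points, as for mt-Cytb at 17930 to 21400 CPM against 25416 to 29266 CPM.

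The proportions of the mRNAs among themselves moved little. Of all mt mRNA reads, mt-Cytb took 24.9% ± 0.406 in TG+ and 25.9% ± 1.14 in TG- mice, with overlap. mt-Nd2 took 12.9% ± 0.0535 against 12.4% ± 0.272 and mt-Nd4 10.2% ± 0.186 against 10.7% ± 0.387, the 2 of the 7 mRNAs whose groups did not overlap. These percentages share a total and so are not independent, and the differences of mt-Nd2 and mt-Nd4 were not tested. For mt-Nd6, the reads were 5.61% ± 0.253 of those on the other 12 mRNAs in TG+ and 5.60% ± 0.406 in TG- mice (exact permutation test, two-sided, p = 1.0).

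Levels can be compared between genes only per length. On the scale of CPM per kilobase, the order in TG- mice was mt-Cytb with 23859 ± 1684, mt-Nd1 with 16716 ± 636, mt-Nd2 with 12634 ± 286, mt-Nd6 with 10757 ± 698, mt-Co1 with 9699 ± 585, mt-Nd5 with 9403 ± 603 and mt-Nd4 with 8202 ± 543. The only neighbours in this order with overlapping ranges of the 3 mice were mt-Co1 and mt-Nd5. In TG+ mice the order of the means was the same, from 17347 for mt-Cytb to 5887 for mt-Nd4, and there mt-Nd6 and mt-Co1 overlapped as well as mt-Co1 and mt-Nd5. When the length was counted only in windows without a nuclear match, an alternative chosen after the data were seen, mt-Nd4 moved from the lowest place to the second with 22513 per kilobase, behind mt-Cytb with 24950, and mt-Co1 came next with 20305. For mt-Nd5 the value was 10420, so the place of mt-Nd4 and mt-Co1 in the order depends on how length was counted.

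Neither rRNA passed the test. mt-Rnr2, the RNA of the large mitochondrial ribosomal subunit, was at 1475, 1620 and 1405 CPM in TG+ mice 43-29, 43-49 and 43-75 and at 1445, 1309 and 1505 CPM in TG- mice 43-26, 43-50 and 43-76. With overlapping groups, its change on the log2 scale was 0.08 (SE 0.0769, adjusted p = 0.493). mt-Rnr1, the RNA of the small subunit, was at 623, 684 and 665 CPM against 605, 623 and 743 CPM, with 0.00 (SE 0.0864, adjusted p = 0.995). Here too the groups overlapped, and the ratio of mt-Rnr2 to mt-Rnr1 was 2.28 ± 0.148 in TG+ and 2.17 ± 0.191 in TG- mice (exact permutation test, two-sided, p = 0.6). Per kilobase, TG- read levels of 898 for mt-Rnr2 and 688 for mt-Rnr1 were below those of every tested mRNA. As equal capture of rRNA and mRNA was not tested, this ranks reads and not the RNAs in the tissue.

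The 16 tested tRNAs ranged widely in level. The fit without pairs called 0 of them, and a fit with the 3 pairs of the table's name as a replicate block, on all 6 mice, called 6 as lower (mt-Ti, mt-Tw, mt-Th, mt-Te, mt-Tt and mt-Tp), with adjusted p from 0.000846 (mt-Th) to 0.0486 (mt-Te) in edgeR. With the block, 12.9% of all genes were lower and 17.6% higher. With each kidney as its own library, which takes the 2 kidneys of a mouse as independent, mt-Tw and mt-Te were called, against 21.1% of all genes lower. Their mean level in TG- mice was between 0.403 CPM for mt-Tf, the tRNA for phenylalanine, and 224 CPM for mt-Te, and the log2 fold changes were between -0.62 and 0.21 with a median of -0.22. Of the 16, 12 were below 0 and 4 above. This count rested on TG- mouse 43-26: without it 6 were below 0 and 10 above, with a median of 0.10. Without pairs, the number at an unadjusted p below 0.05 was 0, DESeq2 called 0, and the lowest adjusted p was 0.132. Standard errors were 0.116 to 0.404, above those of the mRNAs (0.0652 to 0.0848), so that the tRNA values are the less precise.

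The only tRNA whose groups did not overlap was mt-Te, while 20.8% of all genes tested had every TG+ mouse below every TG- mouse. mt-Te was at 199, 163 and 198 CPM in TG+ and 261, 208 and 203 CPM in TG- mice, with a log2 fold change of -0.27 (SE 0.116, adjusted p = 0.132). mt-Th, the tRNA for histidine, had the lowest fold change, -0.62 (SE 0.404), with 28.8, 12.3 and 30.8 CPM in TG+ mice 43-29, 43-49 and 43-75 and 42.2, 19.4 and 48.8 CPM in TG- mice 43-26, 43-50 and 43-76. Here mice 43-49 and 43-50 were the lowest of their groups. The same held for mt-Tt, the tRNA for threonine, with 3.66, 2.05 and 4.44 CPM against 5.67, 2.91 and 6.24 CPM, and for mt-Tw, the tRNA for tryptophan, with 20.7, 12.96 and 21.3 CPM against 28.4, 18.3 and 29.8 CPM.

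In all, 7 of the 16 tRNAs (mt-Tv, mt-Ti, mt-Tw, mt-Tc, mt-Th, mt-Tt and mt-Tp) were lowest in 43-49 among TG+ and in 43-50 among TG- mice. Without these 2 mice, 11 mitochondrial genes were lower at an adjusted p below 0.05, against 7.31% of all genes: the 7 mRNAs and mt-Ti (-0.34), mt-Tw (-0.47), mt-Th (-0.62) and mt-Tt (-0.56). The number of called tRNAs therefore depended on the pairing, on the handling of kidneys and on which mice were used, while the 7 mRNAs were called in each of these fits.

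Other tRNAs differed among mice of a group along other lines. mt-Tl1, a leucine tRNA, ranged from 66.3 to 107 CPM in TG+ and from 61.9 to 160 CPM in TG- mice, lowest in 43-75 and 43-76. The alanine tRNA mt-Ta ranged from 2.51 to 4.69 and from 2.25 to 6.45 CPM and was lowest in the same 2 mice. Of the 16 tRNAs, 12 were highest in TG- mouse 43-26. mt-Tn and mt-Tc, for asparagine and cysteine, had positive fold changes of 0.21 (SE 0.212) and 0.17 (SE 0.210), and mt-Tf and mt-Tv, at a mean of 0.403 and 0.989 CPM in TG- mice, had 0.11 (SE 0.300) and 0.06 (SE 0.361). The remaining tRNAs, mt-Tl1, mt-Ti, mt-Tq, mt-Tm, mt-Ta, mt-Ts2, mt-Tl2 and mt-Tp, had fold changes between -0.35 and -0.06.

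**Figure D4:**
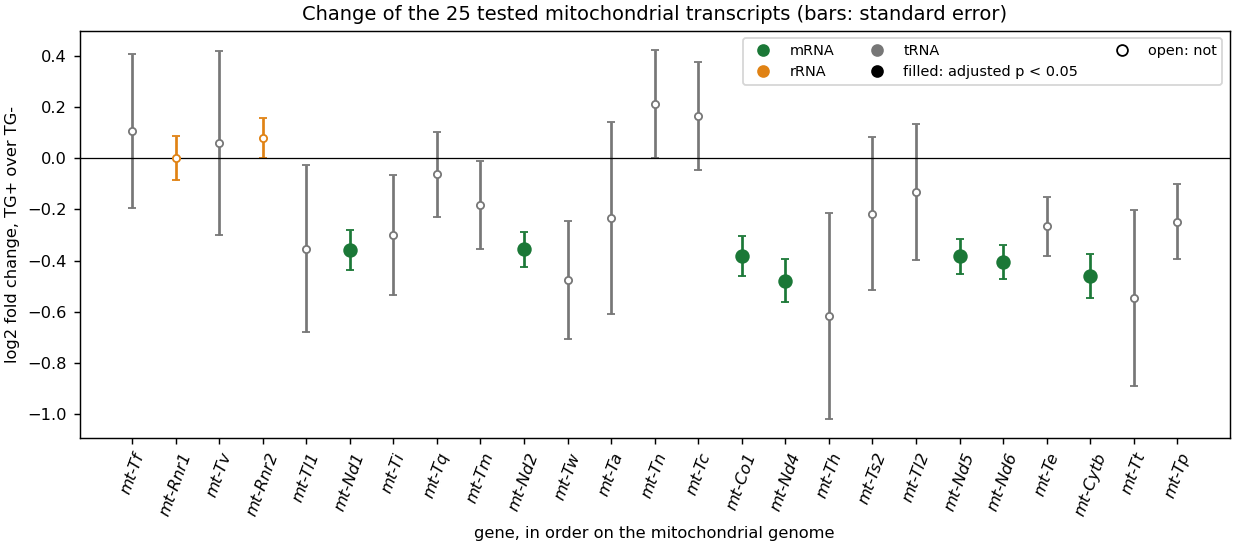
Log2 fold change of TG+ over TG- with its standard error for the 25 tested mitochondrial genes in genome order (green mRNA, orange rRNA, grey tRNA; filled points have an adjusted p below 0.05). The 7 mRNAs lie between -0.48 and -0.36 with short bars, the 2 rRNAs at 0.08 and 0.00, and the tRNAs between -0.62 and 0.21 with longer bars.

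The 2 kidneys of a mouse served as a measure of the spread within an animal. The absolute log2 ratio of kidney 1 to kidney 2 had a median of 0.0432 over the 7 mRNAs and 6 mice, 0.0882 for the rRNAs and 0.183 for the tRNAs. For mRNAs the largest was 0.208, in mt-Nd5 of mouse 43-49. This was smaller than the absolute change of each of the 7 mRNAs between the groups. mt-Ts2 and mt-Tl2, neighbouring tRNAs for serine and leucine, differed most between kidneys, with log2 ratios of mt-Tl2 of 1.20 in mouse 43-29, 0.11 in 43-49, -1.42 in 43-75, -0.64 in 43-26, -0.51 in 43-50 and 1.11 in 43-76. In mt-Ts2 the ratio had the same sign as in mt-Tl2 in each mouse, from -1.22 to 1.25. A chi-square per gene with 1 degree of freedom had a median between 1.91 and 35.7 per mouse, more than counting error gives.

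The nuclear partners of the mitochondrial subunits had fold changes closer to 0 as lists. Their counts are to be read against 10.9% lower and 15.4% higher among all genes tested. Of 36 nuclear subunits of complex I, 6 were lower and 1 higher at an adjusted p below 0.05, with a median log2 fold change of -0.12, and 6 of 36 is not far above the share of all genes. Ndufs1, the largest subunit with iron-sulphur clusters, changed by -0.31 (SE 0.0612), the carrier protein Ndufab1 by -0.29 (SE 0.0549) and Ndufv3 by 0.25 (SE 0.0762). In complex III, Uqcrfs1, the Rieske iron-sulphur protein, Uqcrc1 and Uqcrc2 fell (-0.30, -0.25 and -0.22), 3 of 9 nuclear subunits, with a median of -0.13. When mice 43-49 and 43-50 were left out, 2 subunits of complex I and 2 of complex III were lower, against 7.31% of all genes in that fit.

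In complex IV, 2 of 14 nuclear subunits rose and 1 fell, with a median of -0.09. Ndufa4l2 rose from 3.22 ± 0.772 CPM in TG- to 202 ± 37.6 CPM in TG+ (log2 fold change 5.98), while its relative Ndufa4 fell by 0.42 on the log2 scale, and Cox4i2, an isoform of subunit 4, rose from 0.249 ± 0.0942 to 4.25 ± 0.292 CPM. The common isoform Cox4i1, the most abundant member, changed by -0.15 (SE 0.0517, adjusted p = 0.0693). Of the ATP synthase, which has no measurable mitochondrial member here, 5 of 15 nuclear subunits fell, with a median of -0.14; Atp5b, the catalytic beta subunit, changed by -0.31, Atp5l by -0.25 and Atp5f1 by -0.22. Complex II, encoded wholly by the nucleus, had 3 of 4 subunits lower with a median of -0.20: Sdhb changed by -0.28, Sdha by -0.21 and Sdhd by -0.20. Without mice 43-49 and 43-50, the ATP synthase and complex II each had 1 nuclear subunit lower, and complex IV again had 2 higher and 1 lower, against 11.2% of all genes higher and 7.31% lower. The 7 mitochondrial mRNAs (-0.48 to -0.36) were all below the medians of these lists, and whether they differ from the nuclear subunits was not tested.

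**Figure D5:**
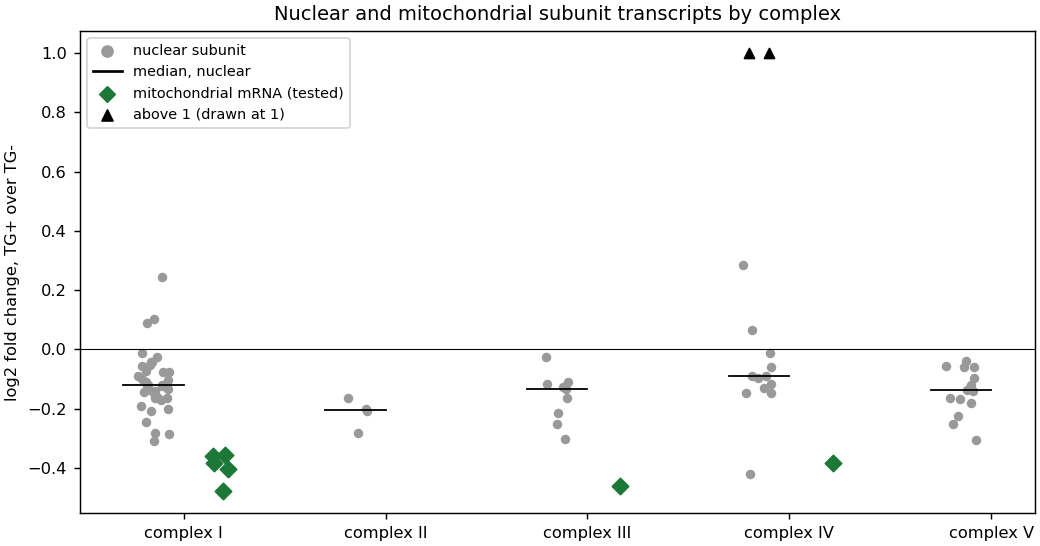
Log2 fold change of TG+ over TG- for nuclear subunits (grey, line at the median) and tested mitochondrial mRNAs (green) of complexes I to V; 2 nuclear subunits of complex IV above 1, Ndufa4l2 and Cox4i2, are drawn at 1. Mitochondrial mRNAs lie between -0.48 and -0.36 and the medians of the nuclear subunits between -0.20 and -0.09.

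Of the nuclear genes that make and mature mitochondrial RNA, the shares that fell are to be read against 10.9% lower and 15.4% higher among all genes tested. For transcription and replication of the mitochondrial genome, 4 of 16 genes fell, with a median of -0.15, and the others did not pass. Polrmt, the mitochondrial RNA polymerase, went from 47.0 ± 1.41 CPM in TG- to 37.9 ± 2.07 CPM in TG+ (log2 fold change -0.31, adjusted p = 0.00792). Tfam, which packages the genome and starts transcription, went from 61.6 ± 2.29 to 52.9 ± 0.401 CPM (-0.22, adjusted p = 0.0173). Mterf2 (-0.51) and Mterf3 (-0.22), of a family of factors that bind mitochondrial nucleic acid, fell too. Polg, the DNA polymerase that copies the genome and the most abundant of the list over all mice, changed by -0.14 (SE 0.0520, adjusted p = 0.0825). Tfam, as the remaining gene of the 4, was named after its value was seen. Of the 16 genes, 2 were lower without mice 43-49 and 43-50, against 7.31% of all genes.

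Of 22 genes for RNA processing, tailing, stability and decay, 6 fell, with a median of -0.09. Among them were Fastkd1 (-0.30) and Fastkd2 (-0.27), of the FASTK family of mitochondrial RNA-binding proteins, and Pnpt1 (-0.23), the exoribonuclease of the mitochondrial degradosome. The most abundant, Grsf1 of the RNA granules, changed by -0.06 (adjusted p = 0.454). Of 14 genes that modify rRNA and tRNA, 2 fell, a share near that of all genes: Mrm2 (-0.30), an rRNA methyltransferase, and Mto1 (-0.22), a tRNA-modifying enzyme. Pus1, a pseudouridine synthase and the most abundant, changed by 0.11 (adjusted p = 0.201), and the median was -0.06. Without mice 43-49 and 43-50, 5 of the 22 genes for RNA processing were lower and 0 of the 14 modifying genes, against 7.31% of all genes.

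Of 20 genes for the charging of mitochondrial tRNAs, 6 fell, with a median of -0.17. Rars2 (-0.37), Iars2 (-0.36) and Aars2 (-0.31), which charge the tRNAs for arginine, isoleucine and alanine, fell most. Lars2, for leucine and the most abundant, changed by -0.16 (adjusted p = 0.599). Of 77 mitochondrial ribosome proteins, 13 fell, little above the share of all genes, with a median of -0.09, led by Mrpl22 (-0.35), Mrpl16 (-0.29) and Mrpl12 (-0.25), and the most abundant, Mrpl50, changed by -0.13 (adjusted p = 0.142). Of 12 regulators of mitochondrial biogenesis, Myc rose (1.88) and the nuclear receptor Esrra (-0.42) and the deacetylase Sirt3 (-0.23) fell, with a median of -0.05. Without mice 43-49 and 43-50, 3 genes for tRNA charging, 2 of the 77 ribosome proteins and 1 regulator were lower, and 2 regulators were higher, against 7.31% lower and 11.2% higher among all genes.

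Cell type markers moved with the genotype as well, and their counts too are to be read against 10.9% lower and 15.4% higher among all genes tested. Of 20 proximal tubule markers, 13 fell and the others did not pass, with a median of -0.41. Their summed level was 36003 to 39746 CPM in TG+ and 48682 to 52727 CPM in TG- mice. Slc22a6 (-1.09), Cyp4b1 (-1.07) and Slc22a8 (-0.86) fell most, and Kap, the most abundant, changed by -0.08 (adjusted p = 0.528). All 20 were above 1 CPM in TG- mice. Of the 20, 12 were lower without mice 43-49 and 43-50, against 7.31% of all genes. In bulk tissue, fewer cells of a type and less RNA per cell cannot be told apart.

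Markers of other cells were higher, where 15.4% of all genes were. Of 19 immune markers, 15 rose, and their summed level was 1585 to 2226 CPM in TG+ and 573 to 689 CPM in TG- mice, with Jchain (2.54), Igkc (2.27, the most abundant) and Cd79a (2.25) in front. Of 9 endothelial markers, 8 rose (Flt1 by 0.80, Emcn by 0.78 and Kdr by 0.72, and Eng, the most abundant, by 0.44; summed 766 to 819 against 440 to 576 CPM). Of 9 stroma markers, 7 rose (Fn1 by 1.26, Dcn by 1.13 and Pdgfrb, the most abundant, by 0.74; summed 329 to 433 against 208 to 248 CPM). Without mice 43-49 and 43-50, 13 immune, 7 endothelial and 5 stroma markers were higher, against 11.2% of all genes.

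Markers of other nephron segments had 1 of 12 lower, Aqp3 (-0.19), with a summed level of 3837 to 5162 against 4156 to 4261 CPM; Umod, the most abundant, changed by 0.06 (adjusted p = 0.795). Of 4 red blood cell genes tested, Hbb-bs (0.83, the most abundant), Hbb-bt (0.82) and Alas2 (0.75) rose, with a summed level of 71.9 to 91.7 against 42.9 to 52.3 CPM. With those 2 mice left out, again 1 of the 12 nephron markers was lower and 3 of the 4 red blood cell genes were higher, against 7.31% of all genes lower and 11.2% higher. The part of these cell types in the fall of the mitochondrial mRNAs was not tested. Of 10 short or untailed nuclear noncoding RNAs, 3 had enough reads to be tested, with adjusted p-values of 0.320 to 0.759. The most abundant, Rn7sk, was at 1.53 ± 0.231 CPM in TG+ and 1.42 ± 0.422 CPM in TG- mice.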

How the data were processed

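RNA was sequenced by the authors as 51-bp single-end reads (TruSeq RNA kit, HiSeq2000) and analysed mainly with the Tuxedo tools. The submitters' processing notes name the build mm9; the counting program, annotation release and strand setting were not given in the sources used here. The authors deposited a raw read count per gene and library, which was used, and RPKM and log2 RPKM values, which were not. Columns of the authors' own comparison (group means, ratio or fold change, test statistics, p-values and q-values) were deposited too and not used.

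Gene symbols came from GENCODE M21 by Ensembl gene ID (32642 of 37681 matched, 86.6%). Coordinates and sequences are of that annotation (GRCm38), not of the build that the authors named. The counts of the 2 kidneys were summed per mouse, filtered with filterByExpr, scaled by TMM (factors 0.944 to 1.07) and fitted with edgeR 4.0.16 in R 4.3.3 (glmQLFit and glmQLFTest, no covariate), with Benjamini-Hochberg adjustment. The standard error is the log2 fold change divided by the square root of the F statistic. Levels are CPM with the same factors and no pseudocount. DESeq2 1.42.0 was an alternative, as were other scalings, kidneys, blocks and left-out mice. The fit was tested on simulated counts.

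The 37 members and the gene lists were chosen with earlier results of these data known, so no value is adjusted over a list alone and no list was tested as a set. All mitochondrial genes are named; of the other lists, the 3 called genes with the largest change and the most abundant member over all mice, except 1 that is not reported here. Mice are separate animals, and the 2 libraries of a mouse are not independent.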

Additional observations from a re-analysis of the deposited data

Results flagged for a closer look

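Each of 56 groups of 6 libraries was checked for a library that stands apart by Dixon's criterion. This asks for a gap to the nearest library above 0.625 of the range, and 2 libraries met it. With 6 independent libraries, chance alone marks about 1 group in 20. The 2 kidneys of a mouse are not independent, so this rate need not hold here. mt-Nd5 was at 11685 CPM in kidney 1 of TG+ mouse 43-49, below the other 5 TG+ libraries at 13094 to 13920 CPM. mt-Tc was at 36.7 CPM in kidney 1 of TG+ mouse 43-29, above the other 5 at 21.7 to 26.7 CPM.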

How the results depend on the processing

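Over 17 alternatives the 7 mRNAs stayed lower and called, with log2 fold changes between -0.54 and -0.24 (highest adjusted p 0.0469), and the rRNAs lay between -0.07 and 0.20 (lowest adjusted p 0.117). With library size alone as scaling the median of the mRNAs was -0.26 in place of -0.38, the median of all genes 0.13 in place of 0.01, and 17.4% of the called genes were lower in place of 41.4%. With each kidney as its own library 8288 genes were called at an adjusted p below 0.05 in place of 5087, and mt-Tw and mt-Te were called too (all genes: 24.8% higher, 21.1% lower). With 1 mouse left out the count was 3184 (without 43-76) to 4780 (without 43-49), and 3390 without 43-50; at the study's threshold it was 499 (without 43-76) to 669 (without 43-29) in place of 773. Without mice 43-49 and 43-50, chosen after the data were seen, it was 495, with 2183 genes higher and 1420 lower at an adjusted p below 0.05 in place of 2982 and 2105, and 11 mitochondrial genes were called. A replicate block of the 3 pairs that the name of the deposited table lists called 13 mitochondrial genes, the 7 mRNAs and 6 tRNAs, and 3413 genes higher and 2499 lower in all. The sample labels give no pairs; deviations correlated by 0.345, 0.298 and -0.0186 within pairs, not all above 0.1, and not every mouse correlated best with its own. Of 425 values of single genes 383 kept direction and side of the threshold, 12, all tRNAs, passed it, and 30 changed sign, in rRNAs and tRNAs that were called neither before nor after. These were mt-Rnr1 without a filter (-0.0045), with upper-quartile scaling (-0.013), library sizes without mt genes (-0.0082), centring on the median gene (-0.012) and DESeq2 (-0.012); mt-Tf (-0.041) and mt-Tv (-0.00062) in kidney 1; mt-Tq in kidney 2 (0.011) and with library size alone (0.054); and without mice 43-49 and 43-50 mt-Rnr1 (-0.073), mt-Rnr2 (-0.041), mt-Tf (-0.17) and mt-Tv (-0.087). With 1 mouse left out in turn, mt-Rnr1 ranged from -0.057 to 0.096, mt-Tf from -0.052 to 0.34, mt-Tv from -0.26 to 0.35, mt-Tl1 from -0.62 to 0.087, mt-Tq from -0.19 to 0.16, mt-Tm from -0.34 to 0.024, mt-Ta from -0.53 to 0.24, mt-Ts2 from -0.51 to 0.12 and mt-Tl2 from -0.39 to 0.14; for mt-Tl1, mt-Tq, mt-Tm, mt-Ta, mt-Ts2 and mt-Tl2 the highest value was without 43-26. The causes were not tested. The share of reads on mt genes was lower in TG+ by a difference of -1.82 percentage points (-2.16 to -1.56 with 1 mouse left out, -2.05 and -1.57 in kidneys 1 and 2). The 12 genes not tested lacked enough reads in at least 3 mice, and without the filter 33 mt genes were tested and the same 7 called.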
